A study of Mus musculus with 7 samples.

Results

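The platelet-derived growth factor (PDGF) family was followed through 7 mouse RNA libraries: the ligand genes Pdgfa, Pdgfb, Pdgfc and Pdgfd and the receptor genes Pdgfra and Pdgfrb. The 6 genes were taken by name. Values were analysed for 5 of them, 3 ligands and 2 receptors, out of 17422 genes. Pdgfd was not analysed here. Pdgfb was about 97 times lower in PDGF-B-labelled gliomas than in EGFRvIII-labelled gliomas. Pdgfra, the most abundant member in every glioma, was about 8.5 times higher in PDGF-B-labelled gliomas than in the cultured progenitors. In EGFRvIII-labelled gliomas Pdgfra was about 4.1 times higher than in this unreplicated culture, but was not called (limma adjusted p = 0.0660). Both outcomes against the culture changed with the libraries in the fit.

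All libraries came from BALB/c neural precursors taken at embryonic day 14, transduced with a retrovirus carrying the red fluorescent protein DsRed and grown with bFGF and EGF at 10 ng/ml. The 3 PDGF-B-labelled gliomas arose from wild-type precursors given PDGF-B, and the 3 EGFRvIII-labelled ones from Ink/Arf -/- precursors given EGFRvIII, a truncated, constitutively active EGF receptor, so that oncogene and genotype differed together. In both, 20000 cells were grafted into the brain of an adult BALB/c mouse after 10 days of culture, and the tumours were collected at the first neurological signs and sorted for DsRed. The remaining library was 1 culture of wild-type E14 progenitors given PDGF-B and likewise sorted for DsRed. It has no replicate, and the sources used here give neither its time in culture nor the species of the transgenes. Both glioma groups differed from this culture by growth in the brain, and EGFRvIII-labelled gliomas also by oncogene and genotype. These cannot be told apart in comparisons with the culture. Rises and falls against the culture are differences of level, not changes followed in the same cells.

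PDGF ligands are disulfide-linked dimers that bind and pair receptor tyrosine kinases. PDGF-A and PDGF-C act mainly through the alpha receptor, PDGF-B binds both receptors, and PDGF-D acts mainly through the beta receptor. In the developing brain the alpha receptor marks oligodendrocyte precursors, whose division is driven by PDGF-A from neurons and astrocytes, and the beta receptor marks pericytes, which are recruited by PDGF-B from endothelium. Excess PDGF-B in neural progenitors gives rise to gliomas with oligodendroglial features.

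The driver genes ran against the labels of the gliomas. Egfr stood at 4952, 5109 and 3594 CPM (reads scaled to library size) in PDGF-B-labelled gliomas and at 41.2, 26.9 and 25.6 CPM in EGFRvIII-labelled gliomas. The culture held 282 CPM of Egfr. The log2 difference between the glioma groups was 7.20 ± 0.26 (SE, limma adjusted p = 0.000187). Cdkn2a, the tumour suppressor of the Ink/Arf locus, was at 3.52, 2.94 and 4.99 CPM in PDGF-B-labelled gliomas, against 22.7, 26.1 and 11.1 CPM in EGFRvIII-labelled gliomas, whose genotype is given as deleted (log2 difference -2.31 ± 0.39 SE, limma adjusted p = 0.0318). The sources used here do not say which exons the deletion removes. Pdgfb likewise ran against the labels, as described with the ligands. Every library is kept under its label, and each direction holds for the gliomas as labelled. Whether labels or files of the glioma groups were exchanged was not tested; an exchange would turn every direction between the glioma groups and swap the groups set against the culture. Depth was 32513754 to 39062584 recovered reads per library. On principal component 1 of the 6 gliomas, with 55.7% of the variance, replicate 3 labelled PDGF-B lay at -5.77. Its group-mates lay at -89.3 and -88.7. That library lay nearer to EGFRvIII-labelled replicates 1 and 3, at 37.2 and 44.2, than to its group-mates. EGFRvIII-labelled replicate 2 lay farthest from it, at 102. Over all genes, replicate 3 labelled PDGF-B had Spearman correlations of 0.963 and 0.949 with its group-mates. With the EGFRvIII-labelled gliomas they were 0.960, 0.935 and 0.965.

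Promoter entries were found in RefSeq (GRCm38.p6) for 4 of the 6 genes. The 250 bases before the RefSeq start are shown for Pdgfra, the receptor that differed between PDGF-B-labelled gliomas and the culture, and for Pdgfa, the ligand with the largest share of ligand RNA in PDGF-B-labelled gliomas. The Pdgfa window lies inside the gene as GENCODE annotates it, which starts at 138997370 on the minus strand. Capitals mark motif matches, searched on both strands: the GC box GGGCGG, the TATA box TATAAA, the CCAAT box CCAAT, the E box CANNTG and the AP-1 site TGANTCA.
Pdgfra, chr5:75152001-75152250, plus strand: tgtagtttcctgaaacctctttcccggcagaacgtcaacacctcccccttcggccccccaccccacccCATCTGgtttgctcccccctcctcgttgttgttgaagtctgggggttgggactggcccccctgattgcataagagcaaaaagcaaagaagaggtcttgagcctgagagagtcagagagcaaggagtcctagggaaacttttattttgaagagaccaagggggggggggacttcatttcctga
Pdgfa, upstream entry, chr5:138994945-138995194, minus strand: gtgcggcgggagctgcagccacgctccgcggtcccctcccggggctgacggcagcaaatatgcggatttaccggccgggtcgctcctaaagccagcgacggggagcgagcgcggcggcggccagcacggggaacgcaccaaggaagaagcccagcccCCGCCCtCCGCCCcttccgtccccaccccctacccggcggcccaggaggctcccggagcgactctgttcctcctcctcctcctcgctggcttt
The Pdgfra window had 54.4% G and C, near the median of 52.4% over all 32536 promoters, and 1 E box match, a motif found in 66.2% of promoters. The Pdgfa window had 72.4% G and C and 2 GC box matches on the opposite strand, a motif found in 33% of promoters. None of the matches overlapped another. Neither window held the TATA, CCAAT or AP-1 letters, which 12.3%, 33.8% and 6.73% of promoters held. A match is a run of letters, and binding was not measured.

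Pdgfb, which encodes the ligand of both receptors, was the member that separated the glioma groups. Pdgfb (ENSMUSG00000000489, chr15:79995874-80014977, minus strand, GRCm38, the assembly that mm10 denotes) was at 1.95, 2.97 and 4.88 CPM in PDGF-B-labelled gliomas, at 386, 284 and 277 CPM in EGFRvIII-labelled gliomas, and at 245 CPM in the culture. The 3 low libraries are the ones labelled with this ligand. Their values rest on 67, 98 and 174 reads and did not overlap either other group. Mean levels were 3.27 ± 1.49 CPM in PDGF-B-labelled gliomas and 316 ± 60.9 CPM in EGFRvIII-labelled gliomas (SD, n = 3 each). The log2 difference was -6.65 ± 0.34 (SE, limma adjusted p = 0.000838), and the sign was negative in every pair of gliomas.

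Against the culture, Pdgfb was lower in PDGF-B-labelled gliomas by a log2 difference of -6.30 ± 0.47 (SE, limma adjusted p = 0.00125). In EGFRvIII-labelled gliomas the log2 difference from the culture was 0.35 ± 0.47 (SE, limma adjusted p = 0.716), with a 95% confidence interval of -0.75 to 1.46, and all 3 gliomas lay above the culture value. Both comparisons use the same culture library, which the fit assumes to vary like the gliomas. Reads of a transgene whose sequence matches the mouse gene cannot be told apart from those of the gene on its chromosome in these values.

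Pdgfa, the ligand of the alpha receptor on oligodendrocyte precursors, did not separate the glioma groups. Pdgfa (ENSMUSG00000025856, chr5:138976014-138997370, minus strand) was at 7.72, 12.7 and 15.2 CPM in PDGF-B-labelled gliomas, at 9.29, 13.7 and 9.67 CPM in EGFRvIII-labelled gliomas and at 34.7 CPM in the culture. The glioma groups overlapped, and the culture lay above all 6 gliomas. The log2 difference between the glioma groups was 0.09 ± 0.33 (SE, limma adjusted p = 0.895), with a 95% confidence interval of -0.67 to 0.86. Against the culture the log2 difference was -1.60 ± 0.45 in PDGF-B-labelled gliomas (SE, limma adjusted p = 0.0707) and -1.69 ± 0.45 in EGFRvIII-labelled gliomas (SE, limma adjusted p = 0.0613), and neither passed the 0.05 threshold. Without replicate 3 labelled PDGF-B, which enters the first through its group mean and the second through the shared estimate of spread alone, both passed, with limma adjusted p of 0.0446 at a log2 difference of -1.80, and of 0.0491 at -1.69; over all alternatives the adjusted p ran from 0.0446 to 0.147 and from 0.0491 to 0.141.

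An annotated antisense gene, 6330403L08Rik, overlaps Pdgfa and reaches into the printed window. It held 7.54, 13.9 and 6.69 CPM in PDGF-B-labelled gliomas, 6.40, 6.54 and 9.11 CPM in EGFRvIII-labelled gliomas and 12.7 CPM in the culture. The sources used here do not say whether counting used strand, so the Pdgfa level is uncertain by the reads that this gene shares.

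Pdgfc, whose product is secreted in a latent form that proteases such as tPA must cut, had the narrowest range of the 5 members, 1.16 log2 units over the 7 libraries. Pdgfc (ENSMUSG00000028019, chr3:81036416-81214040, plus strand) was at 4.92, 5.88 and 6.08 CPM in PDGF-B-labelled gliomas, at 9.89, 5.26 and 5.78 CPM in EGFRvIII-labelled gliomas and at 11.1 CPM in the culture. The glioma groups overlapped, with replicate 1 labelled EGFRvIII close to the culture and above the other 5 gliomas. The log2 difference between the glioma groups was -0.26 ± 0.33 (SE, limma adjusted p = 0.706; 95% confidence interval -1.02 to 0.51). Differences from the culture were -0.97 ± 0.46 in PDGF-B-labelled gliomas (SE, limma adjusted p = 0.219) and -0.72 ± 0.46 in EGFRvIII-labelled gliomas (SE, limma adjusted p = 0.400).

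**Figure D1:**
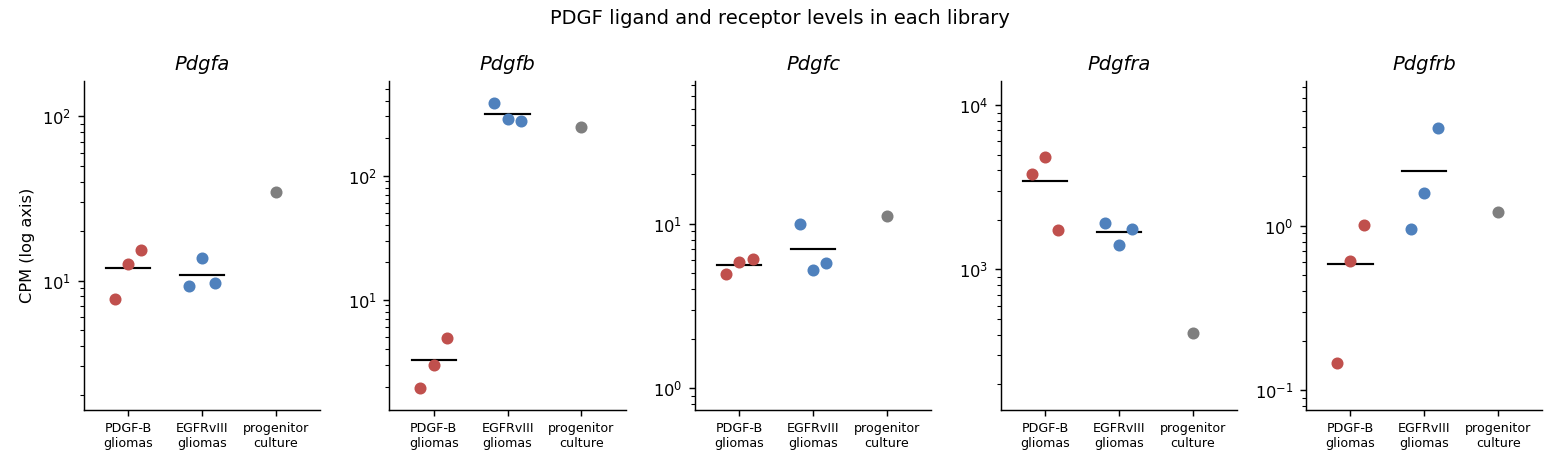
CPM of each PDGF ligand and receptor gene in each library on log axes that differ between panels; each point is 1 library, and the bar is the mean of the 3 PDGF-B-labelled gliomas or the 3 EGFRvIII-labelled ones. Pdgfb points of PDGF-B-labelled gliomas, 1.95 to 4.88 CPM, lie far below all others, and the Pdgfra point of the culture, 408 CPM, lies below all 6 gliomas.

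Pdgfra, the alpha receptor, was the most abundant member in every glioma. Pdgfra (ENSMUSG00000029231, chr5:75152292-75198215, plus strand) was at 3825, 4797 and 1738 CPM in PDGF-B-labelled gliomas, at 1904, 1402 and 1773 CPM in EGFRvIII-labelled gliomas and at 408 CPM in the culture. Replicates 1 and 2 labelled PDGF-B stood above every other library, while replicate 3 lay inside the range of EGFRvIII-labelled gliomas. Means were 3453 ± 1563 CPM in PDGF-B-labelled gliomas and 1693 ± 260.3 CPM in EGFRvIII-labelled gliomas (SD, n = 3 each). The log2 difference of 0.92 ± 0.40 did not pass the threshold (SE, limma adjusted p = 0.308; 95% confidence interval -0.02 to 1.85). Without replicate 3 labelled PDGF-B it was 1.35 with a limma adjusted p of 0.0371, and over all alternatives the adjusted p ran from 0.0371 to 0.709.

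Against the culture, Pdgfra rose in PDGF-B-labelled gliomas, with a log2 difference of 2.96 ± 0.55 (SE, limma adjusted p = 0.01996; higher in 3 of 3 gliomas). In EGFRvIII-labelled gliomas the log2 difference was 2.04 ± 0.55, also with 3 of 3 gliomas above the culture, and missed the threshold (SE, limma adjusted p = 0.0660; 95% confidence interval 0.74 to 3.34). The first call was lost without replicate 1 labelled PDGF-B (log2 difference 2.82, limma adjusted p = 0.0570) and in a fit of only the 4 libraries compared (limma adjusted p = 0.0786), with a range over alternatives of 0.00259 to 0.0786. The second was made without replicate 3 labelled PDGF-B (limma adjusted p = 0.0119) and with only the 4 libraries compared (limma adjusted p = 0.0333), with a range of 0.0119 to 0.144.

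Markers of oligodendrocyte precursors were read beside Pdgfra, which is not among them. The list had 12 of 12 genes measured, and its summed level was 9765 to 16488 CPM in PDGF-B-labelled gliomas, 8148 to 8926 CPM in EGFRvIII-labelled gliomas and 5257 CPM in the culture. Of the 12 genes, 2 were called higher in PDGF-B-labelled gliomas than in EGFRvIII-labelled gliomas, 8 in PDGF-B-labelled gliomas than in the culture, and 4 in EGFRvIII-labelled gliomas than in the culture, with none called lower; of all genes 0.717%, 7.73% and 8.2% were called higher in these comparisons, and voom called 2, 5 and 3 of the 12. Their median log2 differences were 0.66, 2.56 and 1.59. Ptprz1, a phosphatase of precursor cells and the most abundant of the 12, averaged 4066 ± 1432 CPM in PDGF-B-labelled gliomas, 3665 ± 722 CPM in EGFRvIII-labelled gliomas (SD, n = 3 each) and 3071 CPM in the culture, and passed no comparison. In bulk RNA, fewer cells of a type and less RNA per cell cannot be told apart, and the part of this cell type in the Pdgfra result was not tested. The 8 genes of the neural progenitor list summed to 871 to 2340.1 CPM in PDGF-B-labelled gliomas, 1616 to 2459.5 CPM in EGFRvIII-labelled gliomas and 7694 CPM in the culture. Against the culture 4 were called lower in each glioma group by limma and 2 by voom. Of all genes limma called 1.73% and 1.34% lower in these comparisons. Astrocyte markers summed to 1885 to 2481 CPM in PDGF-B-labelled gliomas, 1424 to 1541 CPM in EGFRvIII-labelled gliomas and 1631 CPM in the culture. The sum and the median differ in sign where PDGF-B-labelled gliomas are compared: the median log2 difference of the 8 astrocyte genes was -0.21 from EGFRvIII-labelled gliomas, with 1 called higher, and -1.62 from the culture, with 2 called higher, and in EGFRvIII-labelled gliomas it was -1.41 from the culture, with 1 called higher. Mature neuron markers summed to 109 to 219 CPM in PDGF-B-labelled gliomas, 70.1 to 164 CPM in EGFRvIII-labelled gliomas and 79.3 CPM in the culture, with medians of -0.48, -0.52 and -0.55 in the same comparisons and 0, 2 and 0 of 8 called, the 2 as higher; these medians were negative although the sums of all 3 PDGF-B-labelled gliomas lay above that of the culture.

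The annotated genes Gm42802 and Gm42803 lie inside Pdgfra on the other strand. Gm42802 held 0.600 to 1.92 CPM and Gm42803 held 0.122 to 0.664 CPM over the 7 libraries, against 408 to 4797 CPM of Pdgfra.

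Pdgfrb, the beta receptor of pericytes and fibroblasts, had the lowest level per kb of exon of the 5 members in every library. Pdgfrb (ENSMUSG00000024620, chromosome 18) was at 0.146, 0.606 and 1.01 CPM in PDGF-B-labelled gliomas, at 0.958, 1.58 and 3.95 CPM in EGFRvIII-labelled gliomas and at 1.22 CPM in the culture. In PDGF-B-labelled gliomas these rest on 5, 20 and 36 reads, and a count of 0 would allow up to 0.0818 to 0.0909 CPM per library, counting error only. The glioma groups overlapped by the highest PDGF-B-labelled and the lowest EGFRvIII-labelled value. The log2 difference was -1.85 ± 0.77 (SE, limma adjusted p = 0.288). Against the culture it was -1.28 ± 1.08 in PDGF-B-labelled gliomas (SE, limma adjusted p = 0.475) and 0.57 ± 1.08 in EGFRvIII-labelled gliomas (SE, limma adjusted p = 0.810).

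Markers of cells that carry Pdgfrb were read beside it. Of the mural cell list, 9 of 12 genes had values, summing to 11.2 to 28.8 CPM in PDGF-B-labelled gliomas, 22 to 33.0 CPM in EGFRvIII-labelled gliomas and 50.7 CPM in the culture, where Kcnj8 and Vtn were at 0. Against the culture the sum and the median of these genes differ in sign: the median log2 difference was 2.95 in PDGF-B-labelled gliomas, with 4 called higher and 1 lower, and 3.06 in EGFRvIII-labelled gliomas, with 3 called higher. Voom called 1 of the 9 in each. Of all genes limma called 7.73% higher and 1.73% lower in PDGF-B-labelled gliomas, and 8.2% higher in EGFRvIII-labelled gliomas. Between the glioma groups it was -0.28, with 0 called by limma and voom and 2 with an unadjusted p under 0.05 by limma. Of the fibroblast list, 5 of 8 genes summed to 2.21 to 8.71 CPM in PDGF-B-labelled gliomas, 11.3 to 35.0 CPM in EGFRvIII-labelled gliomas and 3.33 CPM in the culture. Of the endothelial list, 6 of 10 genes summed to 1.63 to 3.53 CPM in PDGF-B-labelled gliomas, 7.51 to 9.62 CPM in EGFRvIII-labelled gliomas and 1.71 CPM in the culture, where Cdh5, Cldn5 and Tie1 were at 0. Between the glioma groups limma and voom called none of these 5 fibroblast and 6 endothelial genes. By limma 1 and 4 of them had an unadjusted p under 0.05. Against the culture limma called 0 and 1 higher in PDGF-B-labelled gliomas, and 1 and 3 in EGFRvIII-labelled gliomas. Voom called 0 and 0 in the first, and 0 and 2 in the second. Replicate 3 of each glioma group was highest of its group in Pdgfrb, in the mural sum and in the fibroblast sum. The part of these cells in the Pdgfrb values was not tested.

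**Figure D2:**
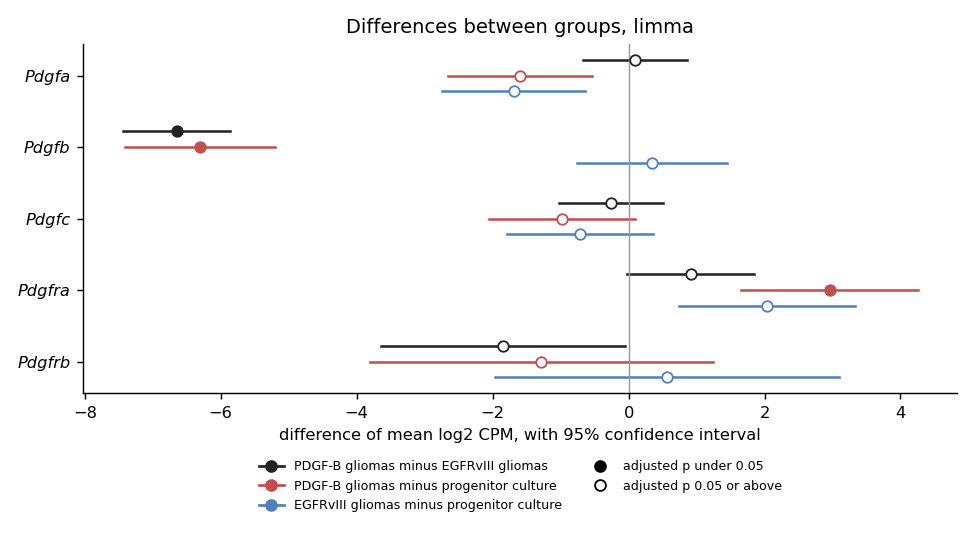
Difference of mean log2 CPM with its 95% confidence interval for each member and comparison (limma); filled points have an adjusted p under 0.05. Filled points stand for Pdgfb, at -6.65 and -6.30, and for Pdgfra in PDGF-B-labelled gliomas against the culture, at 2.96.

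Counted together, 1 of the 5 members was called between the glioma groups, as lower, where 3.35% of all genes were called, 0.717% as higher and 2.63% as lower. Against the culture, 2 of 5 were called in PDGF-B-labelled gliomas, 1 higher and 1 lower, where 9.45% of all genes were called, 7.73% as higher and 1.73% as lower. In EGFRvIII-labelled gliomas against the culture limma called 0 of 5, where 9.55% of all genes were called, 8.2% as higher and 1.34% as lower; 2 members had an unadjusted p under 0.05, and voom weights on the recovered reads also called 0. Without replicate 3 labelled PDGF-B the counts were 2, 3 and 2, in the same order of comparisons, and without replicate 1 labelled PDGF-B the count of PDGF-B-labelled gliomas against the culture was 1. Groups did not overlap in 1 of 5 members between the glioma groups, beside 22.9% of all genes, in 5 of 5 for PDGF-B-labelled gliomas against the culture, beside 78.9%, and in 4 of 5 for EGFRvIII-labelled gliomas, beside 63.7%. With 1 culture library such a gap is common, and it is read as no result about the members.

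Levels of different members were compared as CPM per kb of annotated exon. In PDGF-B-labelled gliomas the order was Pdgfra, Pdgfa, Pdgfc, Pdgfb and Pdgfrb in all 3 libraries. In EGFRvIII-labelled gliomas it was Pdgfra, Pdgfb, Pdgfa, Pdgfc and Pdgfrb in all 3. In the culture Pdgfb came first, at 58.8 CPM per kb, then Pdgfra at 40.7, Pdgfa at 11.1, Pdgfc at 2.17 and Pdgfrb at 0.222 CPM per kb. Pdgfra stood at 344.5 ± 156.0 CPM per kb in PDGF-B-labelled gliomas and 169 ± 26.0 CPM per kb in EGFRvIII-labelled gliomas (SD, n = 3 each). Among 17254 genes ranked per kb, Pdgfra was at rank 33, 25 and 145 in PDGF-B-labelled gliomas, at 140, 369 and 149 in EGFRvIII-labelled gliomas and at 1110 in the culture. In PDGF-B-labelled gliomas the neighbours Pdgfc and Pdgfb were close, at 1.11 ± 0.12 and 0.785 ± 0.357 CPM per kb (SD, n = 3), a gap smaller than the spread of Pdgfb.

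The makeup of the ligands differed with Pdgfb. By CPM per kb, Pdgfb made up 12%, 12% and 16.2% of the 3 measured ligands in PDGF-B-labelled gliomas, 95%, 92.7% and 94.0% in EGFRvIII-labelled gliomas and 81.6% in the culture. Pdgfa made up 63.3%, 68.5% and 67.4% in PDGF-B-labelled gliomas, 3.05%, 5.94% and 4.37% in EGFRvIII-labelled gliomas and 15.4% in the culture. The PDGF-B-labelled tumours held mostly Pdgfa among the measured ligands, and the other libraries mostly Pdgfb. Pdgfra exceeded the summed ligands 97.5, 80.6 and 23.9 times in PDGF-B-labelled gliomas and 1.94, 1.90 and 2.50 times in EGFRvIII-labelled gliomas, while in the culture the ratio was 0.565. These shares leave out Pdgfd, and per-length levels of RNA say nothing of protein. Any transgene reads that match Pdgfb are included in the shares and ratios, and were divided by the exon length of the mouse gene.

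**Figure D3:**
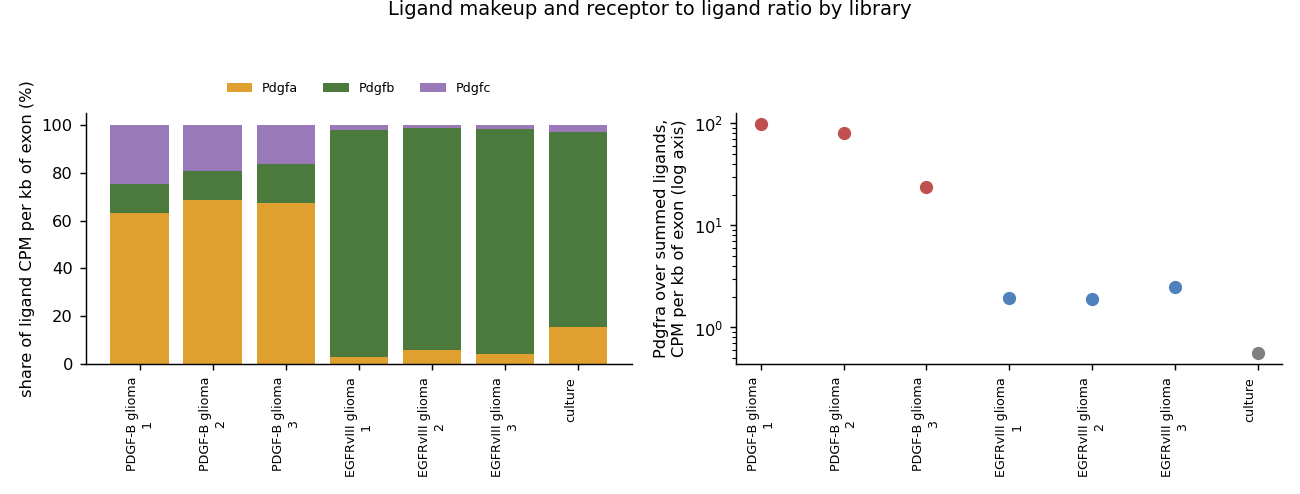
Left, share of each ligand in the summed CPM per kb of exon of Pdgfa, Pdgfb and Pdgfc in each library (stacked bars); right, Pdgfra over that sum on a log axis. Pdgfb holds 12% to 16.2% in PDGF-B-labelled gliomas and 92.7% to 95% in EGFRvIII-labelled gliomas, and the ratio is 23.9 to 97.5 in the first and 1.90 to 2.50 in the second.

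Genes that act with the family were read from 7 lists of ligand processing, co-receptors, signalling, down-regulation, related receptors and ligands, and induced genes. Of 82 genes 81 had values. Between the glioma groups 3 of 81 were called, 3.70%, beside 3.35% of all genes. In PDGF-B-labelled gliomas against the culture 8 were called, 9.88% beside 9.45%, and in EGFRvIII-labelled gliomas against the culture 14 were called, 17.3% beside 9.55%. The first 2 shares lie near the background. The same shares of all genes, given by direction with the members, stand beside the counts of each list below. Voom on the recovered reads called 3, 5 and 8. It did not make the calls of Plat, Lrig1 and Csf1r in PDGF-B-labelled gliomas against the culture (adjusted p = 0.0611, 0.0647 and 0.0560), nor those of Furin, Plat, St14, Eng, Socs3, Kdr and Txnip in EGFRvIII-labelled gliomas against the culture (adjusted p of 0.0502 to 0.0986), and there it called Slc9a3r1 lower (adjusted p = 0.0498). The counts of limma moved with single libraries: between the glioma groups 12 were called without replicate 3 labelled PDGF-B and 0 without any other single glioma. In PDGF-B-labelled gliomas against the culture the count was 5, 4 and 14 without replicate 1, 2 or 3 of that label, and in EGFRvIII-labelled gliomas against the culture it was 21 without replicate 3 labelled PDGF-B and 8 without replicate 3 labelled EGFRvIII.

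Of 8 genes that process or bind the ligands, 3 proteases rose in EGFRvIII-labelled gliomas against the culture. Plau, the urokinase protease that activates latent PDGF-D, was lower, at 3.64, 4.39 and 15.0 CPM in PDGF-B-labelled gliomas, against 42.0, 40.9 and 53.4 CPM in EGFRvIII-labelled gliomas (log2 difference -2.84, limma adjusted p = 0.0349). Against the culture, at 1.10 CPM, Plau rose in EGFRvIII-labelled gliomas (log2 difference 5.29, limma adjusted p = 0.00512). St14, matriptase, and Furin, which cuts the A and B precursors, also rose there, by 4.33 and 1.57 on the log2 scale (limma adjusted p = 0.0137 and 0.0224). Plat, tissue plasminogen activator, which releases active PDGF-C, fell in both glioma groups against the culture, with log2 differences of -1.32 in PDGF-B-labelled gliomas and -1.19 in EGFRvIII-labelled gliomas (limma adjusted p = 0.0325 and 0.0453). Sparc, a matrix protein that binds PDGF and the most abundant of this list, averaged 157 ± 68.8 CPM in PDGF-B-labelled gliomas and 771 ± 744 CPM in EGFRvIII-labelled gliomas (SD, n = 3 each) and passed no comparison. In all, limma called 1 of 8 lower between the glioma groups, 1 of 8 lower in PDGF-B-labelled gliomas against the culture, and 3 higher and 1 lower in EGFRvIII-labelled gliomas; the medians of the list were -1.41, -0.59 and 0.84 in these comparisons, beside medians over all genes of -0.00015, 0.04 and 0.01.

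Of the 7 co-receptors, limma and voom called none between the glioma groups, where 4 had an unadjusted p under 0.05 by limma. Against the culture 2 were called higher in PDGF-B-labelled gliomas and 2 higher in EGFRvIII-labelled gliomas. Lrp1, an endocytic receptor phosphorylated through the beta receptor, was at 2129, 2270.0 and 1829 CPM in PDGF-B-labelled gliomas, at 2491, 1372 and 2089.6 CPM in EGFRvIII-labelled gliomas and at 349 CPM in the culture. It rose against the culture by 2.57 on the log2 scale in PDGF-B-labelled gliomas (limma adjusted p = 0.00893) and by 2.47 in EGFRvIII-labelled gliomas (limma adjusted p = 0.00825). Itgav, the alpha-v integrin, rose in PDGF-B-labelled gliomas by 1.78 (limma adjusted p = 0.0235), and Eng, the TGF-beta co-receptor endoglin, rose in EGFRvIII-labelled gliomas by 4.21 (limma adjusted p = 0.0201). Median log2 differences of the list were -1.24 between the glioma groups and, against the culture, 1.51 in PDGF-B-labelled gliomas and 1.68 in EGFRvIII-labelled gliomas.

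Few of the 24 genes for proteins that the activated receptors bind were called. Between the glioma groups limma and voom called none, where 4 had an unadjusted p under 0.05 by limma, and 1 of 24 was called lower in each glioma group against the culture. That gene was Grb10, an adaptor that dampens insulin receptor signalling, at 5.13, 3.00 and 1.93 CPM in PDGF-B-labelled gliomas and 0.688, 0.688 and 2.59 CPM in EGFRvIII-labelled gliomas, against 58.3 CPM in the culture. Log2 differences from the culture were -4.21 in PDGF-B-labelled gliomas (limma adjusted p = 0.0265) and -5.68 in EGFRvIII-labelled gliomas (limma adjusted p = 0.00720). Fyn, a Src-family kinase and the most abundant of the list, averaged 468 ± 34.9 CPM in PDGF-B-labelled gliomas, 466 ± 105 CPM in EGFRvIII-labelled gliomas (SD, n = 3 each) and 480.1 CPM in the culture. Median log2 differences of the list were 0.09 between the glioma groups and, against the culture, -0.02 in PDGF-B-labelled gliomas and 0.07 in EGFRvIII-labelled gliomas.

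Of 12 genes listed under receptor down-regulation, limma and voom called none between the glioma groups, where 5 had an unadjusted p under 0.05 by limma. The effect of each gene on the receptors was not measured here. Against the culture 2 were called lower in PDGF-B-labelled gliomas, and 2 higher and 1 lower in EGFRvIII-labelled gliomas. Lrig1, a membrane protein that lowers receptor tyrosine kinase levels, fell against the culture to 14.5, 15.3 and 71.0 CPM in PDGF-B-labelled gliomas and 19.7, 14.4 and 13.4 CPM in EGFRvIII-labelled gliomas, against 257 CPM in the culture (log2 difference -3.36 in PDGF-B-labelled gliomas, limma adjusted p = 0.0490, and -4.04 in EGFRvIII-labelled gliomas, limma adjusted p = 0.0249). Slc9a3r1, the scaffold NHERF1, fell in PDGF-B-labelled gliomas by 3.36 on the log2 scale (limma adjusted p = 0.0214). Sh2b3 and Socs3, inhibitory adaptors of cytokine and kinase signalling, rose in EGFRvIII-labelled gliomas by 1.47 and 3.27 (limma adjusted p = 0.0154 and 0.0341). Median log2 differences of the list were -0.13 between the glioma groups and, against the culture, -0.23 in PDGF-B-labelled gliomas and -0.10 in EGFRvIII-labelled gliomas.

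Of 16 genes listed as PDGF-induced, 1 was called lower between the glioma groups and 1 lower in PDGF-B-labelled gliomas against the culture. In EGFRvIII-labelled gliomas against the culture 1 was called higher and 1 lower. Whether PDGF raises or lowers each of these genes was not measured here. Hbegf, an EGF receptor ligand, fell in both glioma groups against the culture, to 13.1, 11.4 and 22 CPM in PDGF-B-labelled gliomas and 10.7, 21.7 and 11.5 CPM in EGFRvIII-labelled gliomas, against 109 CPM in the culture (log2 difference -2.87 in PDGF-B-labelled gliomas, limma adjusted p = 0.0166, and -2.98 in EGFRvIII-labelled gliomas, limma adjusted p = 0.0126). Txnip, an inhibitor of thioredoxin, was lower in PDGF-B-labelled gliomas than in EGFRvIII-labelled gliomas, by a log2 difference of -2.08 (limma adjusted p = 0.0435), and rose in EGFRvIII-labelled gliomas against the culture by 3.3 (limma adjusted p = 0.0140). Egr1, an immediate-early transcription factor and the most abundant of the list, averaged 657 ± 229 CPM in PDGF-B-labelled gliomas, 823 ± 101 CPM in EGFRvIII-labelled gliomas (SD, n = 3 each) and 1914 CPM in the culture, and passed no comparison. Median log2 differences of the list were -0.71 between the glioma groups and, against the culture, -0.52 in PDGF-B-labelled gliomas and 0.00 in EGFRvIII-labelled gliomas.

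Of the 5 related receptors with values, 1 was called lower between the glioma groups, 1 higher in PDGF-B-labelled gliomas against the culture and 2 higher in EGFRvIII-labelled gliomas. Csf1r, the receptor that sustains microglia and macrophages, stood apart. It was at 57.4, 85.1 and 175 CPM in PDGF-B-labelled gliomas, at 615, 1384 and 951 CPM in EGFRvIII-labelled gliomas and at 0.434 CPM, or 15 reads, in the culture. The log2 difference between the glioma groups was -3.29 (limma adjusted p = 0.0254). Against the culture it rose by 7.59 in PDGF-B-labelled gliomas (limma adjusted p = 0.00166) and by 10.89 in EGFRvIII-labelled gliomas (limma adjusted p = 0.000307). Kdr, a VEGF receptor of endothelium, rose in EGFRvIII-labelled gliomas by 2.24 (limma adjusted p = 0.0346). None of the 9 related ligands was called in any comparison by limma or voom; by limma 2 had an unadjusted p under 0.05 between the glioma groups, 4 in PDGF-B-labelled gliomas against the culture and 2 in EGFRvIII-labelled gliomas. Vegfa, the most abundant of these, averaged 334 ± 130.4 CPM in PDGF-B-labelled gliomas, 318 ± 197 CPM in EGFRvIII-labelled gliomas (SD, n = 3 each) and 66.9 CPM in the culture.

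Between the glioma groups, markers of microglia and macrophages were lower in PDGF-B-labelled gliomas, as were Csf1r, Plau, Txnip and Pdgfb. All 12 genes of that list had values, with sums of 461, 624 and 1992 CPM in PDGF-B-labelled gliomas, 7471, 15667 and 6585 CPM in EGFRvIII-labelled gliomas and 16.8 CPM in the culture, where C1qb and Trem2 were at 0. Of the 12, 11 were called lower between the glioma groups, where 2.63% of all genes were. In PDGF-B-labelled gliomas against the culture 12 were called higher, beside 7.73% of all genes, and in EGFRvIII-labelled gliomas 12, beside 8.2%. Voom called 9, 2 and 5 in the same order, and against the culture it also called fewer genes than limma over all genes. RNA of these markers was present in all 6 DsRed-sorted gliomas. Pdgfb was at 245 CPM in the culture, which was itself given PDGF-B and where this list summed to 16.8 CPM. In PDGF-B-labelled gliomas against the culture Pdgfb stood at -6.30 on the log2 scale and the median of the list at 8.43. The part of these cells in the results for Pdgfb, Csf1r, Plau, Txnip, St14, Eng and Socs3 was not tested.

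**Figure D4:**
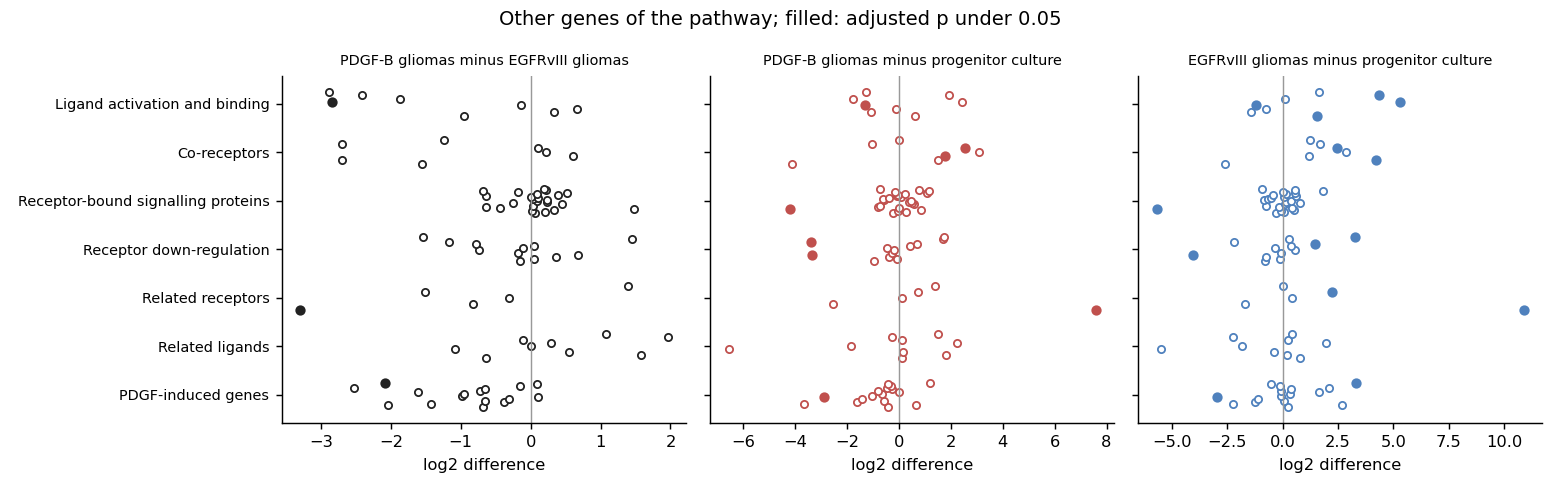
Log2 difference of each of the 81 other genes of the pathway by list, 1 panel for each comparison; filled points have a limma adjusted p under 0.05. The receptor-bound signalling proteins gather near 0 with Grb10 as the filled point at -4.21 and -5.68, and Csf1r is the filled point at 10.89 on the right.

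Neighbouring genes within 500 kb were read beside each member. Of all genes limma called 3.35% between the glioma groups. Against the culture it called 9.45% in PDGF-B-labelled gliomas and 9.55% in EGFRvIII-labelled gliomas. With so few neighbours for each member, the counts are read as no result about the members. None of the 23 neighbours of Pdgfb was called by limma or voom between the glioma groups or in PDGF-B-labelled gliomas against the culture, where 2 and 6 had an unadjusted p under 0.05. In EGFRvIII-labelled gliomas against the culture limma called 1 of the 23, Syngr1, higher (log2 difference 2.08, limma adjusted p = 0.0241), and voom called none. Log2 differences of the 23 between the glioma groups ran from -0.98 to 1.01 with a median of -0.15, beside -6.65 for Pdgfb. The Pdgfb values include any matching transgene reads, which need not come from this locus. Around Pdgfra, limma and voom called none of 8 neighbours between the glioma groups, where 1 had an unadjusted p under 0.05. Kit, the receptor of stem cell factor at 377 kb, was at 66.9, 40.6 and 45.1 CPM in PDGF-B-labelled gliomas and 13.0, 18.5 and 27.9 CPM in EGFRvIII-labelled gliomas, without overlap, a feature that 22.9% of all genes shared (log2 difference 1.39, limma adjusted p = 0.0699). Lnx1, a ubiquitin ligase at 449 kb, was called higher in both glioma groups against the culture, by 3.39 in PDGF-B-labelled gliomas and 3.44 in EGFRvIII-labelled gliomas on the log2 scale (limma adjusted p = 0.00318 and 0.00179). Chic2, at 108 kb, was at 49.2 to 55.3 CPM in PDGF-B-labelled gliomas, 49.7 to 62.3 CPM in EGFRvIII-labelled gliomas and 67.5 CPM in the culture.

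Of 17 neighbours of Pdgfa, Fam20c, a secretory kinase, and Adap1 were called lower between the glioma groups, with log2 differences of -2.11 and -1.85 (limma adjusted p = 0.0309 and 0.0276), while Pdgfa itself stood at 0.09. Of all genes 2.63% were called lower there. Against the culture 1 of the 17 was called higher in PDGF-B-labelled gliomas and 3 in EGFRvIII-labelled gliomas, beside 7.73% and 8.2% of all genes. Pdgfa stood at -1.60 and -1.69 in these comparisons. None of the 3 neighbours of Pdgfc was called by limma or voom, and 1 had an unadjusted p under 0.05, in PDGF-B-labelled gliomas against the culture. Of 14 neighbours of Pdgfrb 1 was called in each comparison, the macrophage receptor Csf1r, which lies 15.5 kb away. The neighbours named here, other than Csf1r, were chosen after their values were seen.

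**Figure D5:**
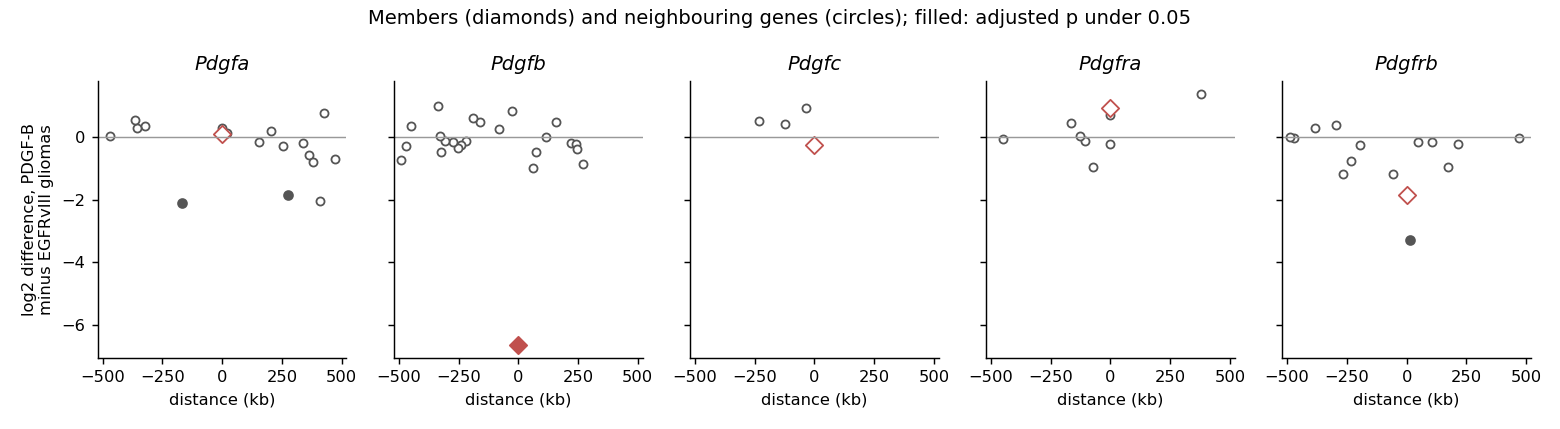
Log2 difference, PDGF-B-labelled gliomas minus EGFRvIII-labelled gliomas, of each member (diamond, at 0) and of its neighbours (circles) by distance in kb; filled symbols have a limma adjusted p under 0.05. The Pdgfb diamond lies at -6.65 while its 23 neighbours lie between -0.98 and 1.01.

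Genes with a pattern like each member's were sought among those with at least 10 CPM in their highest library, by the root mean square difference of mean-centred log2 values over the 7 libraries. Nearest to Pdgfra, which spanned 3.55 log2 units, were Gal3st1, a sulfatide synthase of oligodendrocytes, at 0.11, the potassium channel subunit Dpp6 at 0.15 and Rap1gap, a Rap1 inactivator, at 0.16. No gene came near Pdgfb, which spanned 7.59 log2 units: its nearest genes, Nrn1, Myof and Dapk1, lay at 1.63, 1.68 and 1.69. Nearest to Pdgfa were Lfng at 0.16, Ctnna1 at 0.18 and Tpmt at 0.22, and nearest to Pdgfc were Mdm2 at 0.11, Zbtb2 at 0.12 and Pigm at 0.13. For Pdgfrb, with few reads, Tgif1, Fgf13 and Rpl6l lay at 0.63, 0.65 and 0.65. These are descriptions over 7 libraries of 3 groups, so genes that differ between the groups in the same way come out alike.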

How the data were processed

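RNA of 3 PDGF-B-labelled gliomas, 3 labelled EGFRvIII and 1 progenitor culture was sequenced on a BGISEQ-500; groups and replicate numbers come from the sample titles, which call the gliomas biological replicates. STAR, edgeR and mm10 are named, with no version, in the submitters' processing notes. Per the file headers, the authors deposited log2 CPM for each gene; the header for EGFRvIII replicate 3 lacks the unit, but its lowest value, -4.12, is that of the other libraries. The sources used here name no quantifier, scaling or gene filter. The steps between low values gave reads in multiples of 0.01 with a prior count of 2, so the values derive from estimated counts. Of all values above 0 in a library, 36.6% to 39.0% were whole reads within 0.02 of a read. CPM printed here are recovered reads over the authors' effective library sizes, without the prior. At this depth 1 read is worth 0.0273 to 0.0303 CPM. Coordinates, exon lengths and neighbours came from GENCODE M21, which gave a symbol for 17254 of 17422 IDs.

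The deposited log2 values were tested with limma 3.58.1 in R 4.3.3 (trend, robust), adjusted by Benjamini-Hochberg over all 17422 genes and called at an adjusted p under 0.05. The glioma groups were compared in a fit of the 6 gliomas, and each was set against the culture in 1 fit to the 7 libraries, both with 4 residual degrees of freedom. Log2 differences include the prior and understate changes of genes with few reads. The procedure was tested on simulated reads with the same dispersion set for every gene and no library lying apart from its group. That test does not show how the calls behave with a library such as replicate 3 labelled PDGF-B. Members and gene lists were chosen with earlier results of these data known. Genes named in the text are all members, Egfr and Cdkn2a, the called and the most abundant genes of each pathway list, and the 3 genes most like each member; of each marker list, the most abundant gene was taken, and some genes taken by the rule are not reported here. Overlapping genes, markers at 0 and neighbours stand outside this rule and were named with their values seen. The alternatives were other scalings, other pseudocounts of 0.5 and 5 CPM, a minimum of 1 CPM in 3 libraries, voom, no trend, a replicate block, other sets of libraries, a threshold of 0.01, each glioma left out, neighbour windows of 250 and 1000 kb, and coding length. Over all genes, same-numbered gliomas correlated only weakly in their deviations from the group means, and the numbers were not used as pairs.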

Additional observations from a re-analysis of the deposited data

Results flagged for a closer look

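The effect on Pdgfb relative to the same progenitor culture differed between the glioma groups: it was -6.30 in PDGF-B-labelled gliomas and 0.35 in EGFRvIII-labelled gliomas on the log2 scale. The difference between these effects is the comparison of the glioma groups itself, -6.65 ± 0.34 (SE, limma adjusted p = 0.000838), lower in 3 of 3 PDGF-B-labelled gliomas than in all 3 labelled EGFRvIII. The direction goes against the glioma labels, as does that of Egfr.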

How the results depend on the processing

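Between the glioma groups and against the culture in PDGF-B-labelled gliomas, Pdgfb kept its direction and its call under all 16 and 15 alternatives (log2 difference -6.98 to -5.28 and -6.63 to -4.93). With 3 gliomas a group and 1 culture the other members' calls were less stable, and Pdgfrb rests on 5 to 145 reads a library. Between the glioma groups the count over all genes was 583, and 224 without trend, 18 with the replicate block, 7 at an adjusted p of 0.01, and 4 to 1282 with 1 glioma left out (4, 7 and 1282 without replicate 1, 2 or 3 labelled PDGF-B, and 21, 15 and 7 without replicate 1, 2 or 3 labelled EGFRvIII). Pathway genes called there were 1 without trend, 0 with the block, 0 at 0.01 and 0 to 12 with 1 glioma left out, and members called were 1 to 2. Over all genes, same-numbered gliomas correlated at 0.175, -0.036 and -0.080 in their deviations from the group means. Differently numbered gliomas ran from -0.250 to 0.207. With 3 gliomas a group these values cannot tell whether a shared number means more than a label. No member's call changed under the block, where Pdgfb had a limma adjusted p of 0.0254. For Pdgfrb the SE was 0.46 under the block and 0.77 without it, with limma adjusted p of 0.145 and 0.288. With 1 glioma left out the log2 difference between the glioma groups ran from -0.11 to 0.38 for Pdgfa and from -0.43 to 0.023 for Pdgfc. Pdgfa reversed to -0.11 without replicate 3 labelled PDGF-B and to -0.0074 without replicate 1 labelled EGFRvIII, and Pdgfc to 0.023 without that EGFRvIII replicate; neither was called in any of these.

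In PDGF-B-labelled gliomas against the culture, 1647 genes were called, 1021 with a pseudocount of 5 CPM, 553 with voom, 721 with only the 4 libraries compared, 507 at 0.01 and 854 to 2303 with 1 glioma left out. Pathway genes called there were 5 with voom, 3 with the 4 libraries, 2 at 0.01 and 4 to 14 with 1 glioma left out, and members called were 1 with the 4 libraries, 1 at 0.01 and 1 to 3 with 1 glioma left out. In EGFRvIII-labelled gliomas against the culture, 1663 genes were called, 721 with voom, 704 at 0.01 and 1058 to 2030 with 1 glioma left out; pathway genes were 8 with voom, 4 at 0.01 and 8 to 21 with 1 glioma left out, and members were 1 with the 4 libraries and 0 to 2 with 1 glioma left out. Neighbours called within 500 kb were 3, 3 and 6 in the 3 comparisons, 5, 10 and 14 within 1000 kb, and 1 and 2 against the culture within 250 kb. By coding length instead of exon length, Pdgfra over Pdgfb was 1.19 instead of 2.22 in EGFRvIII-labelled gliomas and 0.369 instead of 0.693 in the culture. Library totals in place of the authors' scaling moved the median of all genes to 0.15 instead of 0.04 in PDGF-B-labelled gliomas against the culture, and no sign of a member changed with it. The cause of these changes was not tested, other than fewer libraries or a stricter threshold by construction.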
